A study of Mus musculus with 12 samples.

Results

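The interleukin-18 gene Il18 lies on mouse chromosome 9, and 557 of the 55681 gene probe positions on the array map to this chromosome within 10 Mb of the Il18 probe on either side. They were chosen by the position in the scanner files (build mm9, chr9:40389761-60389820) and not by signal, with the probes of Il18, Apoa1, Apoa4, Apoa5 and Apoc3 left out. The 557 probes carry 374 gene names, and 209 of the probes are named only by a transcript or region identifier. RNA from whole kidneys of male mice was measured on 12 Agilent one-colour arrays, 1 per mouse, in 4 groups of 3: Il18+/+ and Il18-/- mice, each aged 6 weeks and 12 weeks, with no treatment. The sources used here name no Cre or tissue promoter for the Il18 deletion and do not give the deleted exons. The sample labels give the strain of all groups as BALB/c, whereas the study's methods give C57Bl/6 with littermate controls, and the files do not settle this. Whole kidney holds tubule, vessel, blood and surrounding tissue, so fewer cells of a type and less RNA per cell cannot be told apart.

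Interleukin-18 belongs to the interleukin-1 family of signalling proteins and stimulates T cells and natural killer cells to release interferon gamma. Genes that neighbour a targeted gene are inherited together with it unless recombination separates them, and backcrossing shortens the stretch that is passed on together. The strain of the embryonic stem cells and the number of backcrosses are not given in the sources used here, and whether these mice carry such a stretch was not tested. Each array probe is a DNA strand of 60 bases that binds the labelled RNA of a short part of one transcript, so 2 probes of a gene can read different exons, transcript ends or isoforms.

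Of the genes near Il18, 4 are shown that have 1 probe with a larger difference between the genotypes and another with a smaller one or one in the other direction, and the sequences below show how little such pairs have in common. Capitals mark the longest run of bases found in both probes of a pair, and 30 of the 60 bases of each probe are given in its own 5′ to 3′ direction. For Rps25, which encodes a protein of the small ribosomal subunit, these are bases 11 to 40 of the probe at chr9:44218247-44218306 and bases 1 to 30 of the probe at chr9:44216951-44218094, both on the plus strand.
Rps25, first probe: aaaactttattgaATCAAatgaatgggtgc
Rps25, second probe: aggacttATCAAgctggtctcaaagcacag
For Ift46, a gene of intraflagellar transport, they are bases 1 to 30 of the probe at chr9:44600737-44600796 and bases 2 to 31 of the probe at chr9:44598913-44598972, both on the plus strand.
Ift46, first probe: ggacctcattgCACAGgcttgattgactcc
Ift46, second probe: gcttccagagacaCACAGactgctctgtca
For the RIKEN gene 1110032A03Rik, they are bases 1 to 30 of the probe at chr9:50571212-50571271 and bases 31 to 60 of the probe at chr9:50569725-50569784, both on the minus strand.
1110032A03Rik, first probe: tttgagaaggTTTGTAGggaggaaagggaa
1110032A03Rik, second probe: ctagttagtttatggaaTTTGTAGtgttta
For Atm, the DNA damage kinase, they are bases 31 to 60 of the probe at chr9:53245871-53245930 and bases 1 to 30 of the probe at chr9:53256167-53256226, both on the minus strand.
Atm, first probe: tctttctgacaggtttgagtgAGACGGgct
Atm, second probe: gaAGACGGtgcacatagaagatacaggcca
The last pair belongs to the related genes Fam55b and Fam55d, named Nxpe2 and Nxpe4 in RefSeq, whose probes were detected in Il18+/+ mice alone. They are bases 5 to 34 of the Fam55b probe at chr9:48126087-48126131 on the minus strand, a mapped span of 45 bases for a probe of 60, and bases 23 to 52 of the Fam55d probe at chr9:48207362-48207421 on the plus strand.
Fam55b: tatgtgaccccaaGAAGTattatacaggag
Fam55d: tctttgccgattgGAAGTtaggattcctgt
The longest run in common was 5 to 7 bases in each of the 5 pairs, so within a pair the probes read different sequence.

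Signals are given in arbitrary units after each array was scaled to the 75th percentile of its gene spots well above background, and differences are log2 values of Il18-/- minus Il18+/+ with their standard errors. A probe entered a test if one of the groups being compared was well above background on each of its 3 arrays, which held for 308 probes at 6 weeks, 297 at 12 weeks and 311 of 244 gene names over both ages. Of the 557 probes, 267 were well above background on all 12 arrays, 175 on none and 246 were never tested. On the arrays, 31073 to 34967 of 59305 gene spots were well above background, no spot was saturated, and all 10 kidney tubule and podocyte markers were well above background on every array. The arrays lie on 3 slides. All Il18+/+ arrays at 6 weeks are on slide 1 and no Il18-/- array at 6 weeks is, so slide and genotype cannot be told apart at that age. At 12 weeks slide 2 holds 2 Il18+/+ and 3 Il18-/- arrays, and values within it are given beside the pooled ones. Over the part of the region more than 5.41 Mb before Il18, the 3 Il18-/- mice aged 6 weeks differed from each other. By the median there, replicate 2 was nearest to the Il18+/+ mice and replicate 3 lay between it and replicate 1. Differences over both ages are given with and without replicate 2 for Sc5d, Tmem25, Rps25, Bcl9l and Scn2b. The summed signal of 5 adipose markers was 12352 to 24001 in Il18+/+ and 32607 to 38659 in Il18-/- mice aged 6 weeks, whereas at 12 weeks the sum ranged from 2130.2 to 4525 and from 3865 to 4905 in these genotypes. Of these markers Cfd and Car3 were well above background on all 12 arrays and Lep on none, and their part in the results was not tested. The Il18 probe itself read 436, 362 and 364 in Il18+/+ mice and 99.3, 118 and 94.04 in Il18-/- mice aged 6 weeks, and 550.4, 491 and 399.8 and 122, 132 and 84.1 in those aged 12 weeks. It was thus lower on every Il18-/- array, yet still well above background there, and whether it lies in the deleted part is not known here.

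The share of probes that differed between the genotypes was higher near Il18 than over the array as a whole. In the limma fit over both ages, 12 of 311 probes (3.86%) passed an adjusted p of 0.05, against 0.0556% of all 30549 probes tested. Of the 12, 5 were higher in Il18-/- mice (0.0262% of all probes) and 7 were lower (0.0295%). At 6 weeks 7 of 308 probes were called (2.27%, against 0.043% of all), 2 higher and 5 lower, and at 12 weeks 9 of 297 (3.03%, against 0.0518%), 4 higher and 5 lower. At an unadjusted p under 0.05 the shares over both ages were 24.1% near Il18 and 5.90% over the array. With more than 2-fold and an unadjusted p under 0.05, 12 probes were counted at 6 weeks (3.9%, against 0.767%), 5 higher and 7 lower, and 18 at 12 weeks (6.06%, against 0.518%), 8 higher and 10 lower. The median absolute difference over both ages was 0.117 near Il18 and 0.0827 over all probes tested. With 1 array left out in turn, between 8 and 16 probes were called over both ages. At 12 weeks the range was 1 to 15, and at 6 weeks 2 to 5 except without replicate 2 of the Il18-/- mice aged 6 weeks, which gave 8. With slide as a fixed block only 2 were called over both ages, 1 at 6 weeks and 7 at 12 weeks. Over the whole array 5, 3 and 22 probes were then called. Of the 2, the Fxyd6 probe was also among the 12. The 1 at 6 weeks was not among the 7 called without the block, and 2 of the 7 at 12 weeks were among the 9.

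**Figure D1:**
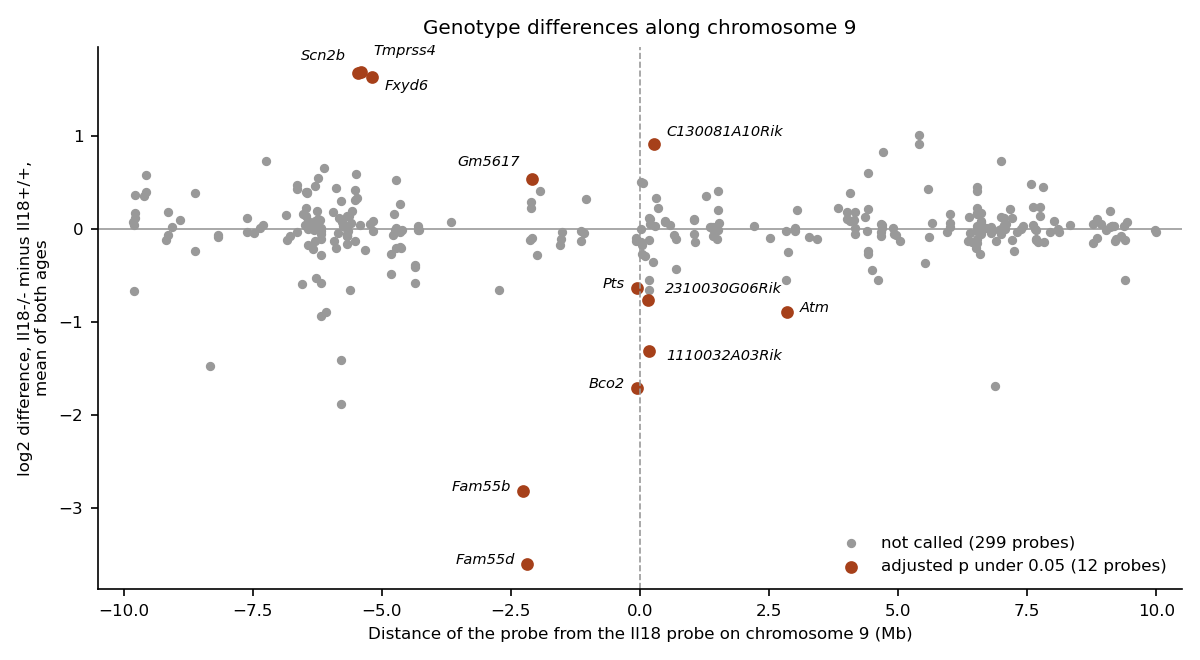
Log2 difference between Il18-/- and Il18+/+ mice (mean of both ages, vertical axis) of the 311 tested probes against their distance from the Il18 probe in Mb (horizontal axis). The 12 called probes lie between 5.45 Mb before Il18 and 2.86 Mb after it. Fam55d and Fam55b, about 2 Mb before it, have the lowest fitted values, but no Il18-/- array was well above background for them, so only a bound can be given for their fold.

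The 12 probes called over both ages lay in one stretch of 8.31 Mb around Il18, whereas not every probe called at 12 weeks lay there. This stretch runs from Scn2b, 5.45 Mb before Il18, to Atm, 2.86 Mb after it, and holds 96 tested probes. In this stretch 24 of 96 probes (25%) did not overlap between the genotypes at either age, in the same direction. Elsewhere within 10 Mb of Il18 this held for 9 of 215 probes (4.19%), with no call at an adjusted p under 0.05 over both ages. On the rest of chromosome 9 it held for 0.686% of 1167 probes and on the other chromosomes for 0.433% of 28893, with 1 and 2 calls. By bins of 2 Mb, the share without overlap was highest from 4 to 2 Mb before Il18, at 5 of 9 probes (55.6%), followed by 12 of 54 (22.2%) from 6 to 4 Mb before it. It was 1 of 58 (1.72%) from 6 to 8 Mb after Il18 and 0 of 24 in the last bin. The bounds of the stretch were read from the calls themselves and are a description. At the borders of the 20 Mb, the outermost tested probes inside differed by 0.073 and −0.034 and the nearest outside by −0.0041 and −0.12.

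Of the 12 genes called over both ages, 10 have no other probe on the array, so their results rest on a single probe. The other 2, Atm and 1110032A03Rik, have another tested probe, which was not called. The 3 called genes at the near end of the stretch, Scn2b, Tmprss4 and Fxyd6, were higher in Il18-/- mice by their only probe, at about 3-fold. Scn2b encodes a beta subunit of voltage-gated sodium channels, and its probe (chr9:44937945-44938004, plus strand) read 88.1, 89.1 and 65.2 in Il18+/+ mice aged 6 weeks and 254, 108 and 288 in Il18-/- mice aged 6 weeks. At 12 weeks it read 43.9, 55.4 and 72.5 in Il18+/+ and 181, 302 and 231 in Il18-/- mice. The genotypes did not overlap at either age, but the second Il18-/- mouse aged 6 weeks was close to the Il18+/+ mice. The difference over both ages was 1.69 ± 0.24 (adjusted p = 0.0356), and it was 1.32 ± 0.34 at 6 weeks and 2.06 ± 0.34 at 12 weeks (1.88 within slide 2). It lost its call in 17 of 24 alternative fits.

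Tmprss4, a membrane-bound serine protease, lies 5.41 Mb before Il18 (chr9:44980979-44981038, minus strand). Its probe read 317, 247 and 181 in Il18+/+ mice aged 6 weeks and 994, 1091 and 779 in Il18-/- mice aged 6 weeks. Its signals at 12 weeks were 371, 433 and 441 in Il18+/+ and 1118, 1157 and 1061 in Il18-/- mice, and every Il18-/- mouse of either age was above every Il18+/+ mouse. The difference was 1.97 ± 0.19 at 6 weeks, 1.42 ± 0.19 at 12 weeks (1.35 within slide 2) and 1.70 ± 0.13 over both (adjusted p = 0.000337). Fxyd6 encodes a small protein of the FXYD family, which regulates the sodium and potassium pump, and its probe lies 5.19 Mb before Il18 (chr9:45204134-45204193, plus strand). It read 3156, 3592 and 3489 in Il18+/+ mice aged 6 weeks and 7744, 8661 and 10793 in Il18-/- mice aged 6 weeks, and 2273, 2117 and 1411 and 6811, 7176 and 6799 in these genotypes at 12 weeks. The groups were again separate at both ages. The difference was 1.40 ± 0.18 at 6 weeks, 1.87 ± 0.18 at 12 weeks (2.003 within slide 2) and 1.63 ± 0.12 over both (adjusted p = 0.000281), and it stayed called in all 24 alternative fits over both ages.

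Neighbours with related roles were not called. Scn4b, another sodium channel beta subunit between Scn2b and Fxyd6, differed by 0.047 ± 0.074, and Tmprss13, a second membrane-bound serine protease, by 0.054 ± 0.24. The 2 probes of Fxyd2, the pump regulator of the kidney tubule, differed by 0.087 ± 0.087 and −0.022 ± 0.084.

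Fam55b and Fam55d were lower in Il18-/- mice. The Fam55b probe, 2.26 Mb before Il18, read 51.7, 38.1 and 44.3 in Il18+/+ mice aged 6 weeks and 41.7, 55.6 and 36.9 at 12 weeks. In Il18-/- mice it read 5.80, 11.8 and 4.72 at 6 weeks and 10.502, 4.37 and 4.12 at 12 weeks. It was well above background on all 6 Il18+/+ arrays and on none of the 6 Il18-/- arrays, so only a bound can be given for the fold: at least 2.20-fold lower in Il18-/- mice at 6 weeks and at least 2.25-fold lower at 12 weeks. These bounds set the mean of the Il18+/+ arrays against, for each Il18-/- array, the higher of the probe's own signal and the lowest signal well above background there. The fitted difference over both ages was −2.82 ± 0.27 (adjusted p = 0.00142; −2.98 at 12 weeks within slide 2).

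The Fam55d probe, 2.18 Mb before Il18, had the same form. It read 84.6, 101 and 99.8 in Il18+/+ mice aged 6 weeks and 82.0, 74.6 and 60.1 at 12 weeks. In Il18-/- mice it read 7.62, 3.68 and 10.4 at 6 weeks and 11.2, 6.94 and 4.24 at 12 weeks, and none of these 6 arrays was well above background. Its signal in Il18-/- mice was at least 4.71-fold lower at 6 weeks and at least 3.66-fold lower at 12 weeks, with a fitted difference of −3.61 ± 0.27 over both (adjusted p = 0.000277; −3.28 at 12 weeks within slide 2). Each of the 2 genes has a single probe on the array. In 23 alternative fits the difference ranged from −3.03 to −0.58 for Fam55b and from −3.78 to −1.08 for Fam55d. Each lost its call in 1 of them. Gm5617, a predicted gene 2.09 Mb before Il18 (chr9:48304008-48304067, plus strand), was higher in Il18-/- mice. Between it and Fam55d lie Rexo2 and Rbm7, which were tested and not called over both ages. Its probe read 14961, 13167 and 13045 in Il18+/+ mice aged 6 weeks and 18305, 21351 and 17814 in Il18-/- mice aged 6 weeks, and 13145, 13565 and 12243 and 21132, 19364 and 18879 in these genotypes at 12 weeks. It was separate between the genotypes at both ages, with a difference of 0.54 ± 0.077 (adjusted p = 0.0353; 0.62 at 12 weeks within slide 2), and it lost its call in 15 of 24 alternative fits.

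**Figure D2:**
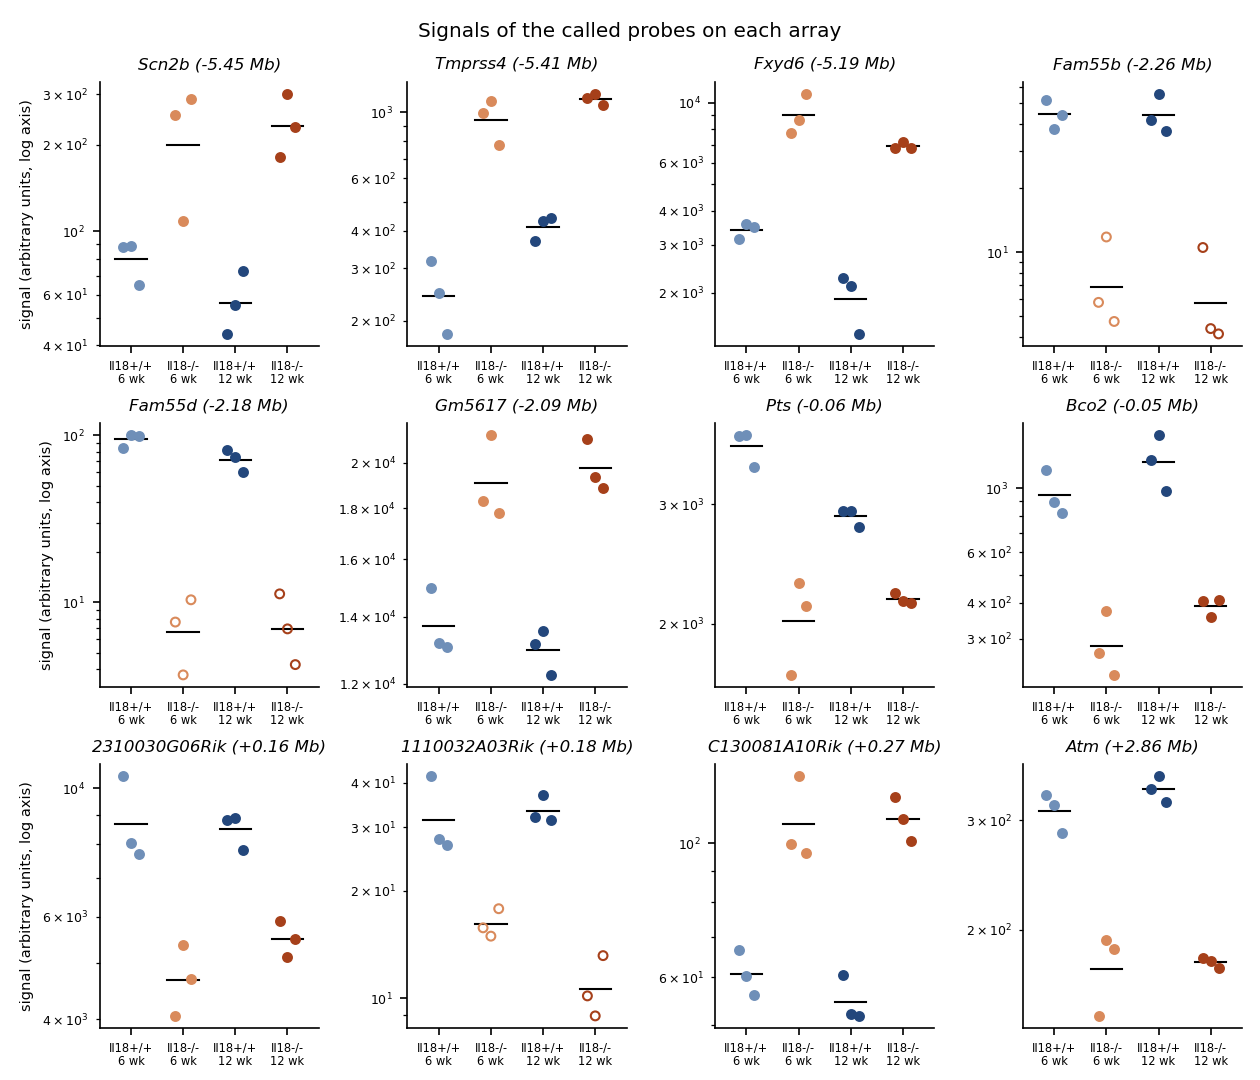
Signal on each array (arbitrary units, log axis) of the 12 probes called over both ages, in the order of their distance from Il18, with 1 point per mouse and a bar at the geometric mean of the 3 mice. Open points mark groups in which no array was well above background, as in all Il18-/- mice for Fam55b, Fam55d and 1110032A03Rik.

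Both genes nearest to Il18 on its near side were lower in Il18-/- mice. Pts encodes an enzyme of tetrahydrobiopterin synthesis, and its probe (chr9:50330140-50330199, minus strand) read 3788, 3802 and 3410.1 in Il18+/+ mice aged 6 weeks and 1679, 2298 and 2123 in Il18-/- mice aged 6 weeks. The 12-week arrays read 2929.6, 2936 and 2774 in Il18+/+ and 2218, 2160.3 and 2142 in Il18-/- mice, so the genotypes were separate at both ages and nearer to each other at 12 weeks. The difference was −0.86 ± 0.12 at 6 weeks, −0.41 ± 0.12 at 12 weeks (−0.39 within slide 2) and −0.63 ± 0.085 over both (adjusted p = 0.0273), and it lost its call in 14 of 24 alternative fits. Bco2, the mitochondrial enzyme that cleaves carotenoids, has a probe 0.048 Mb before that of Il18 (chr9:50341275-50341334, minus strand). It read 1159, 899 and 818 in Il18+/+ mice aged 6 weeks and 268, 374 and 225 in Il18-/- mice aged 6 weeks. At 12 weeks the signals were 1258, 1537 and 978 and 406, 357 and 409 in these genotypes, and no Il18-/- mouse reached the lowest Il18+/+ mouse. The difference was −1.75 ± 0.21 at 6 weeks, −1.66 ± 0.21 at 12 weeks (−1.65 within slide 2) and −1.71 ± 0.15 over both (adjusted p = 0.000825).

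The other genes among the 5 nearest tested on each side were not called over both ages. On the near side, both probes of 1600029D21Rik (Plet1 in RefSeq) differed by −0.13 ± 0.15 and −0.089 ± 0.15, the Ncam1 probe detected on all arrays by −0.038 ± 0.13 and the Ttc12 probes by −0.017 ± 0.09 and −0.12 ± 0.10. On the far side, Sdhd, a subunit of succinate dehydrogenase and the nearest tested gene, differed by −0.14 ± 0.073, and Timm8b, a mitochondrial import factor, by 0.0015 ± 0.074. Dlat, the acetyltransferase of the pyruvate dehydrogenase complex, read 6130.1, 5906 and 5484 in Il18+/+ mice aged 6 weeks and 7236, 8875 and 7926 in Il18-/- mice aged 6 weeks. For the older mice it read 5967, 5725 and 5109 and 8029.8, 8707 and 7887, with a difference of 0.50 ± 0.078 that missed the threshold (adjusted p = 0.0683). AU019823 (Nkapd1 in RefSeq) next to Timm8b differed by 0.51 ± 0.11 (adjusted p = 0.247), and its groups did not overlap at either age. Both probes of Pih1d2, a PIH1 domain gene, differed at 6 weeks by −0.52 ± 0.13 and −0.46 ± 0.13, against −0.011 ± 0.13 and 0.12 ± 0.13 at 12 weeks, and neither passed the adjusted threshold at either age.

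A further 4 probes along the far side were called over both ages. The RIKEN gene 2310030G06Rik, 0.16 Mb after Il18 (chr9:50547905-50547964, minus strand), read 10509.6, 8029.9 and 7697 in Il18+/+ mice aged 6 weeks and 4051, 5371 and 4682 in Il18-/- mice aged 6 weeks. At 12 weeks it read 8804, 8886 and 7811 and 5902, 5124 and 5499, separate at both ages and lower in Il18-/- mice, with a difference of −0.76 ± 0.10 over both (adjusted p = 0.0276; −0.60 at 12 weeks within slide 2). It lost its call in 12 of 24 alternative fits. C130081A10Rik, 0.27 Mb after Il18 (chr9:50657740-50657799, plus strand), was higher in Il18-/- mice. It read 66.6, 60.2 and 56.0 in Il18+/+ mice aged 6 weeks and 99.95, 129.6 and 96.3 in Il18-/- mice aged 6 weeks, and 60.5, 52.1 and 51.8 and 119, 109.7 and 101 in these genotypes at 12 weeks. The difference was 0.91 ± 0.10 over both ages (adjusted p = 0.00278; 1.08 at 12 weeks within slide 2). The first 1110032A03Rik probe, 0.18 Mb after Il18, read 41.9, 27.9 and 26.9 in Il18+/+ mice aged 6 weeks and 32.0, 36.9 and 31.6 at 12 weeks. In Il18-/- mice it read 15.7, 14.9 and 17.8 and 10.2, 8.93 and 13.2, none of them well above background, which is at least 1.56-fold lower at 6 weeks and at least 1.71-fold lower at 12 weeks. Its fitted difference was −1.31 ± 0.13 (adjusted p = 0.00199), with −1.69 at 12 weeks within slide 2. In 23 alternative fits it ranged from −1.39 to −0.34 and lost its call in 2. The highest adjusted p in limma, 0.303, came with normexp background correction.

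Atm, the kinase that signals DNA double-strand breaks, was the called gene farthest along on this side, 2.86 Mb after Il18. Its first probe read 329, 317 and 286 in Il18+/+ mice aged 6 weeks and 145, 192 and 186 in Il18-/- mice aged 6 weeks, and 337, 354 and 322 and 179.8, 178 and 174 in these genotypes at 12 weeks. The groups were well apart at both ages. The difference was −0.84 ± 0.12 at 6 weeks, −0.93 ± 0.12 at 12 weeks (−0.93 within slide 2) and −0.89 ± 0.084 over both (adjusted p = 0.00142). No other probe on this side was called over both ages in the limma fit.

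For several genes the probes differed from each other. The first probe of each tested pair was chosen by its genotype difference on these same arrays, so the p-values of the pairs are a description and not independent evidence. Atm's second probe, 10296 bases from the first, read 133, 117 and 129 in Il18+/+ mice aged 6 weeks and 83.1, 134 and 100.01 in Il18-/- mice aged 6 weeks, and 134, 109.5 and 115 and 104, 109 and 94.8 in these genotypes at 12 weeks. It differed by −0.25 ± 0.11, and the first probe minus the second was −0.64 (exact permutation test within the ages, two-sided p = 0.005, the smallest that 400 labellings allow, adjusted p = 0.015 over 3 pairs). The groups of the second probe overlapped at 6 weeks. For 1110032A03Rik, the second probe 1487 bases away was well above background on all 12 arrays and differed by 0.12 ± 0.12. That pair was not tested, since the first probe was not well above background in either Il18-/- group.

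Rps25, more than 6 Mb before Il18, gave a further pair, whose first probe was also chosen by its genotype difference. The first Rps25 probe differed by −0.93 ± 0.26 and the second by −0.11 ± 0.083, a difference between the probes of −0.82 (exact permutation test, p = 0.015, adjusted p = 0.015).

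Over all 53 gene names near Il18 with 2 or more tested probes, the median range between the probes of a gene was 0.170, and 10 genes (18.9%) had a range over 0.5. Among 5661 gene names elsewhere on the array the median was 0.104, and 4.45% had a range over 0.5. Ift46, which is named here after its values were seen, had the widest range, with a first probe well above background on 9 of 12 arrays. Its first probe differed by −1.41 ± 0.33 (adjusted p = 0.354) and its second, 1824 bases away, by 0.30 ± 0.088 (adjusted p = 0.667). The first read 70.1, 64.8 and 62.7 in Il18+/+ and 23.8, 22.6 and 17.02 in Il18-/- mice aged 12 weeks, and the second 6687, 8373 and 6234 and 10435, 10419.7 and 9702, so at 12 weeks the groups were separate in opposite directions. The called probes had a median GC content of 40.8%, and the 299 tested probes not called one of 45%.

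**Figure D3:**
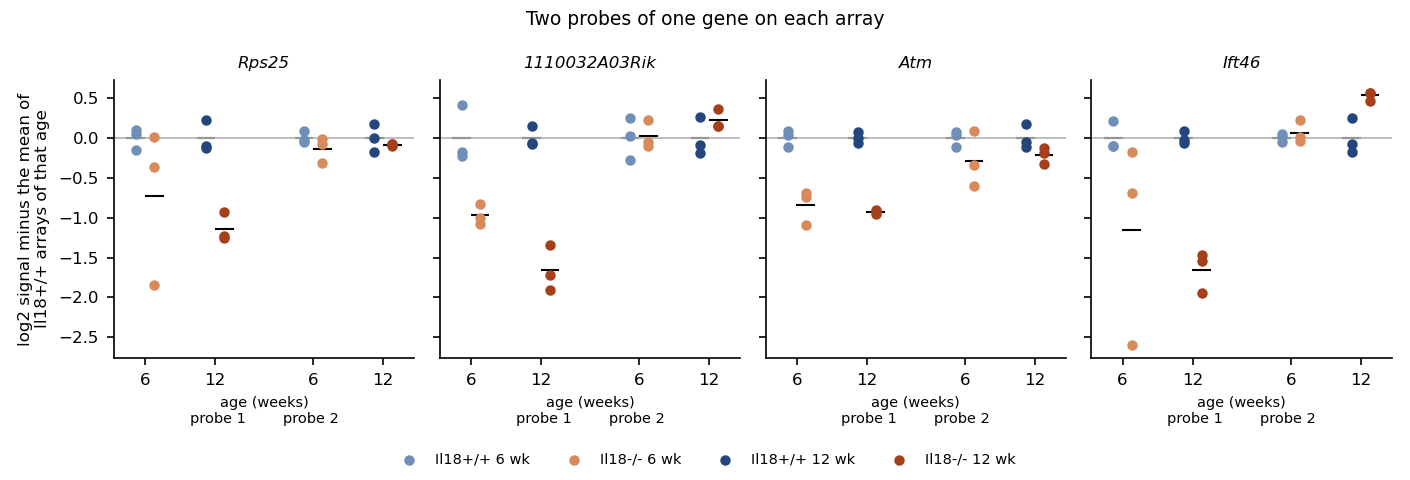
Log2 signal on each array minus the mean of the Il18+/+ arrays of the same age, for the 2 probes of Rps25, 1110032A03Rik, Atm and Ift46 (probe 1 and probe 2 as in the text), with 1 point per mouse and a bar at each group's mean. In each gene the groups are farther apart at probe 1 than at probe 2.

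Most of the larger differences near Il18 repeated at the other age, in other mice. Of the 12 probes past the 2-fold criterion at 6 weeks, 11 were tested at 12 weeks, and 9 of these differed in the same direction there at an unadjusted p under 0.05. Of the 18 past it at 12 weeks, 16 were tested at 6 weeks, and 12 repeated in direction at an unadjusted p under 0.05. Elsewhere on the array 5 of 123 and 7 of 112 probes did so. All 7 probes called at 6 weeks and 8 of the 9 called at 12 weeks repeated in this way, and 6 were called at both ages. Elsewhere on the array 0 of 4 probes called at 6 weeks and 0 of 4 called at 12 weeks did so. Across the 294 probes tested at both ages, the differences at 6 and 12 weeks correlated with Pearson's r of 0.727, and without the called probes r was 0.492 over 282 probes. Of these 282, 53.2% differed in the same direction at both ages, against 40.6% of the probes elsewhere. Across 28376 probes elsewhere on the array r was −0.065, and on the rest of chromosome 9 it was 0.124. Probes are not independent of each other, since they share arrays, slides and scaling, and r is a description. No probe near Il18 differed between the ages in its genotype effect at an adjusted p under 0.05, against 0.0393% of all probes, and 41 of 311 (13.2%) did so at an unadjusted p under 0.05, against 11.6% of all.

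**Figure D4:**
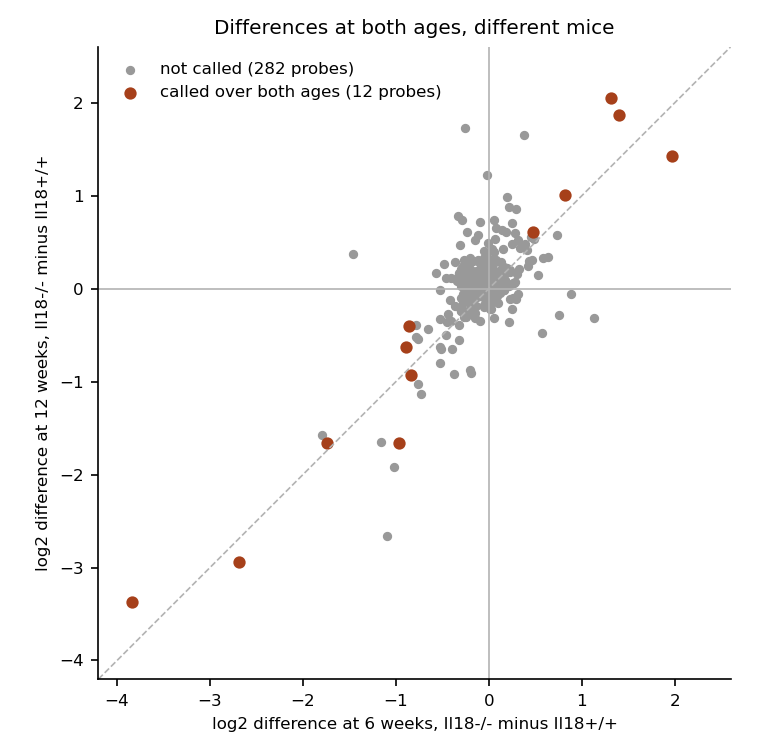
Log2 difference, Il18-/- minus Il18+/+, measured at 6 weeks (horizontal axis) and 12 weeks (vertical axis) for the 294 probes tested at both ages, with equal differences on the dashed line. The 12 called probes lie in the same quadrants at both ages, near the dashed line, and most of the other 282 lie close to the origin.

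Before the stretch of called probes, the 3 Il18-/- mice aged 6 weeks differed from each other. Sc5d, an enzyme of late cholesterol synthesis 8.33 Mb before Il18, read 841, 3640.3 and 2014 in them, against 4021, 3796 and 3407 in Il18+/+ mice of that age. Its signals at 12 weeks were 3599.8, 4262 and 4273 in Il18+/+ and 1033, 1096 and 1071 in Il18-/- mice. The first Il18-/- mouse aged 6 weeks was thus near those aged 12 weeks, the second within the range of the Il18+/+ mice and the third between. Tmem25, a membrane protein gene 5.79 Mb before Il18, read 1698, 12691 and 6663 in the same 3 mice, against 10566, 9718 and 13707 in Il18+/+ mice. The 12-week arrays read 11659, 12574 and 12629 and 1719.9, 2337 and 1808 in the 2 genotypes, and the order of the 3 younger mice was the same. The first Rps25 probe read 67.8, 245 and 189.6 in them against 252, 261 and 219.5 in Il18+/+ mice, and 178, 228 and 181 and 81.4, 103 and 83.0 at 12 weeks. Bcl9l, a cofactor of beta-catenin, was lower in all Il18-/- mice, at 100.05, 143 and 117 against 189.9, 205 and 212 at 6 weeks and 62.7, 74.5 and 88.2 against 148, 201 and 117 at 12 weeks, and here too the second younger mouse was nearest to the Il18+/+ mice. Over both ages Rps25 and Bcl9l did not pass the adjusted threshold (adjusted p = 0.602 and 0.0763), and without the second mouse they differed by −1.12 (adjusted p = 0.21) and −0.96 (adjusted p = 0.0721).

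To put these mice side by side over many genes, each Il18-/- array at 6 weeks was expressed as a share of the difference measured at 12 weeks, where 0 is the mean of the Il18+/+ mice aged 6 weeks and 1 is the full 12-week difference. The probes were those near Il18 that at 12 weeks were over 0.5 in log2 difference, at an unadjusted p under 0.05 and without overlap, so the size and the overlap came from the 12-week arrays alone, whereas the p used a variance pooled over all 12 arrays. This measure, and the division between Scn2b and Tmprss4 were chosen after the values above were seen, so the counts on either side of it are a description. For the 21 probes up to Scn2b, from 9.80 to 5.45 Mb before Il18, the median share was 0.740 in the first mouse, −0.0070 in the second and 0.334 in the third. For the 17 probes from Tmprss4 to Atm it was 0.998, 0.893 and 0.858. The second mouse exceeded a share of 0.5 at 0 of the 21 probes before Tmprss4 and at 15 of the 17 from Tmprss4 on, and the 2 exceptions were both probes of Cryab, a small heat shock protein gene. For the third mouse these counts were 6 of 21 and 14 of 17, and for the first 14 of 21 and 17 of 17. For the 8 probes beyond Atm the medians were −0.28, 0.194 and 0.196, and for 605 probes elsewhere on the array chosen in the same way −0.20, −0.19 and −0.20. At Scn2b, the last probe of the near part, the shares were 0.81, 0.21 and 0.90, and at Tmprss4, 0.043 Mb further on, they were 1.43, 1.53 and 1.19.

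**Figure D5:**
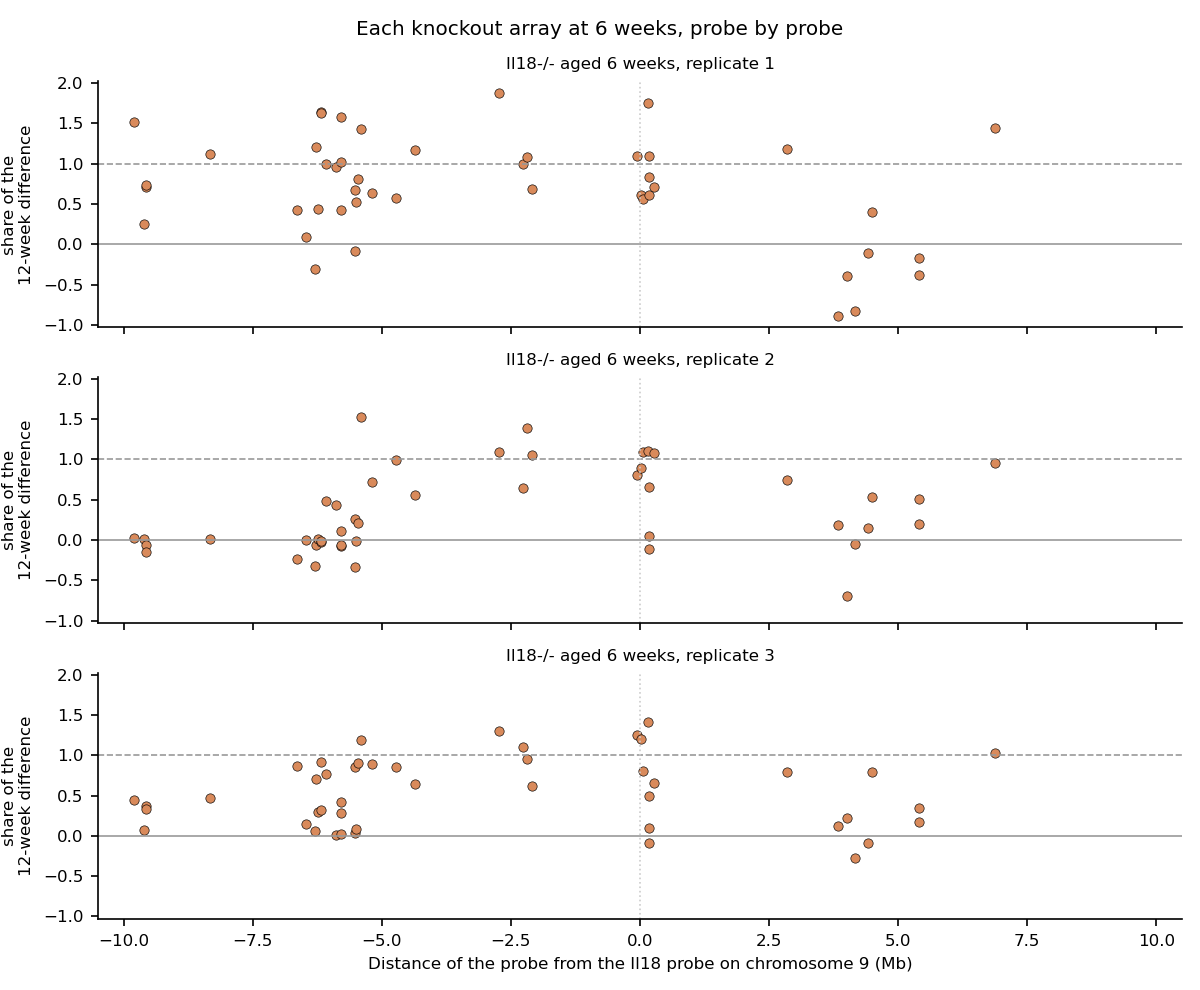
Share of the 12-week genotype difference (vertical axis, 0 the mean of Il18+/+ mice aged 6 weeks, 1 the full 12-week difference) on each Il18-/- array at 6 weeks, for 46 probes by distance from Il18 in Mb (horizontal axis). In replicate 2 the points before about −5.4 Mb range from −0.33 to 0.485, with a median of −0.0070. Of those from there to 2.86 Mb, 15 of 17 are over 0.5 in replicate 2. In replicate 1 most of both, 14 of 21 and 17 of 17, are over 0.5. Replicate 3 lies between, with 6 of 21 and 14 of 17 over 0.5.

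The second mouse's Il18 signal was like that of the other Il18-/- mice, and its array shares slide 2 with that of the third mouse and those of all 3 Il18-/- mice aged 12 weeks, while the first mouse's array is alone on slide 3. Without the second array, 13 probes near Il18 were called over both ages, 8 at 6 weeks and 12 at 12 weeks. Over the whole array 18 of 30688, 24 of 30412 and 18 of 28960 probes were then called. Sc5d then differed by −1.72 (adjusted p = 0.00831), against −1.47 ± 0.27 (adjusted p = 0.154) with it. Tmem25 differed by −2.20 (adjusted p = 0.0291), against −1.88 ± 0.38 (adjusted p = 0.211). Scn2b differed by 1.91 (adjusted p = 0.00176), and the Gm5617 probe lost its call (adjusted p = 0.0732). Among the 2 Il18+/+ and 3 Il18-/- arrays of slide 2 at 12 weeks, Sc5d (−2.001, adjusted p = 0.0121) and Tmem25 (−2.70, adjusted p = 0.0136) were the 2 probes near Il18 that were called. The probes of the 12 genes called over both ages and those of Sc5d, Rps25, Bcl9l and Tmem25 kept their direction there.

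A wider set of probes kept the genotypes apart without being called. Over both ages 33 of 311 probes (10.6%, against 0.556% of all probes tested) did not overlap between the genotypes at either age and differed in the same direction, 13 higher and 20 lower in Il18-/- mice. They include all 12 called probes. The other 21 belong to 19 genes, 8 probes higher and 13 lower, and are named here after their values were seen. All 3 tested probes of Sik3, a salt-inducible kinase gene about 4.36 Mb before Il18, were among them, at −0.58 ± 0.094, −0.40 ± 0.10 and −0.38 ± 0.08 in log2 difference. Others were Cadm1, an adhesion molecule of the immunoglobulin family (−0.65 ± 0.12), a probe of Cep164, a centriole gene (−0.48 ± 0.086), Rnf214 (0.53 ± 0.085), Mpzl2 (0.42 ± 0.10) and, beyond Atm, Rcn2 (−0.36 ± 0.084) and the proteasome subunit Psma4 (−0.27 ± 0.081). The other tested probes of Cep164, at −0.27 ± 0.086 and 0.16 ± 0.09, were not among them. Ppcdc, an enzyme of coenzyme A synthesis 6.87 Mb after Il18, was among them too, with a probe well above background on all 6 Il18+/+ arrays and 1 of 6 Il18-/- arrays. At 6 weeks it was not well above background in Il18-/- mice, which gives a bound of at least 1.45-fold lower (adjusted p over both ages = 0.354).

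By function, the called genes were spread over several groups, counted at an adjusted p under 0.05 over both ages in the limma fit. Of the ion channel and pump regulator genes near Il18, 5 were tested by 6 probes, of which Scn2b and Fxyd6 were called higher and 0 lower, with a median difference of 0.067. Of 2 transmembrane serine proteases tested, Tmprss4 was called higher. The 13 genes of mitochondrial metabolism had 21 probes, of which Bco2 was called lower and 0 higher, with a median of 0.0015. The respiratory chain subunit Cox5a differed by −0.0024 ± 0.083, and the 2 probes of Etfa, an electron transfer protein, by −0.051 ± 0.088 and −0.063 ± 0.12. Of 7 genes in a list of sterol, steroid and xenobiotic enzymes, which also holds Pts, with 10 probes, Pts was called lower and 0 higher (median −0.11), and of 12 genes of the DNA damage response and chromatin with 14 probes, Atm was called lower and 0 higher (median −0.020). At an unadjusted p under 0.05, which 24.1% of the probes near Il18 and 5.90% over the array passed, these 5 lists had 2, 1, 3, 2 and 1 probes higher and 1, 0, 1, 2 and 2 lower, in the order given. Not one of 13 probes of lymphocyte genes, 14 of immunoglobulin family adhesion genes, 9 of chaperones, 15 of cytoskeleton and smooth muscle genes and 11 of ubiquitin ligases and RNA turnover passed the adjusted threshold in limma. At an unadjusted p under 0.05 these 5 had 5, 5, 1, 0 and 1 probes higher and 1, 1, 2, 1 and 2 lower. Among them the lymphocyte genes had the highest median, 0.202, and the median over all probes tested was 0.00097. That list also holds Bcl9l and Treh, the trehalase of the kidney brush border, and Treh differed by 0.44 ± 0.10 (adjusted p = 0.306). The adhesion list also holds Sidt2, whose probe (0.27 ± 0.076) is among those counted as higher. The list of ubiquitin ligases and RNA turnover also holds Bace1, Ppp2r1b and Pcsk7, and the Pcsk7 probe (−0.19 ± 0.073) is among those counted as lower. Ubash3b, a phosphatase of lymphocyte signalling 9.57 Mb before Il18, differed by 0.40 ± 0.11 and 0.58 ± 0.12 at its 2 probes (adjusted p = 0.553 and 0.229), and Thy1, a T cell surface protein, by 0.17 ± 0.13. The 2 probes of Cryab differed by −0.65 ± 0.20 and −0.55 ± 0.20 (adjusted p = 0.714 and 0.792), and the 3 of Hspa8, a constitutive chaperone near the border of the 20 Mb, by 0.12 ± 0.094, 0.17 ± 0.10 and 0.37 ± 0.15.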

How the data were processed

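Kidney RNA of 12 mice was measured on Agilent SurePrint G3 Mouse arrays with 1 colour, 3 mice in each of 4 groups taken from the labels. The deposited intensity values are the processed signals of Agilent Feature Extraction 10.7.3.1, named in the submitters' processing notes, background-subtracted and detrended within each array by the authors and not scaled between arrays. The array test used by the authors is not given in the sources used here.

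Spots marked as outliers were left out, spots of a probe averaged, and log2 signals centred on the 75th percentile of each array's gene spots well above background. Printed signals are these values on the mean percentile signal of the arrays. Genotypes were compared with limma 3.58.1 in R 4.3.3 on all 12 arrays, with Benjamini-Hochberg adjustment over all probes of a comparison, and the script was tested on simulated data. Pairs of probes were compared by exact permutation within the ages, with the first probe of each pair chosen by its genotype difference on the same arrays. The number of arrays limits the precision, and with 3 mice against 3 an exact test of single values cannot go below 0.1. The labels name each array as a biological replicate, which was taken here as 1 mouse.

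Genes were named if a probe near Il18 passed an adjusted p of 0.05 in any comparison, passed the 2-fold criterion without overlap and well above background on all 6 arrays of that age, was another probe of such a gene, belonged to the 5 nearest tested genes on each side, or was among the 3 brightest of a function list. The members and lists were chosen with earlier results of these data known. Alternatives covered the scaling, background correction, filter, prior, slide, replicate number and each array left out, and one, moderating variances over the probes of a comparison only, was chosen after seeing the data. Probe positions and gene names are those of the scanner files (mm9), with 306 of 557 probes matched to RefSeq by accession, and exons were not annotated. The same-numbered mice of the genotypes were not paired in the labels. One gene that met the rule is not reported here by name, and it stays in the counts.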

Additional observations from a re-analysis of the deposited data

Results flagged for a closer look

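The Timm8b probe, beside Il18, had opposite genotype differences at the ages. It read 63997, 60744 and 56685 in Il18+/+ mice aged 6 weeks and 50065, 53866 and 53544 in Il18-/- mice aged 6 weeks, where each Il18-/- mouse was below each Il18+/+ mouse. Its signals were 49058, 53407 and 42609.8 in Il18+/+ mice aged 12 weeks and 55733, 54806 and 56136 in Il18-/- mice aged 12 weeks, where each Il18-/- mouse was above. The genotype difference was −0.20 ± 0.11 at 6 weeks and 0.21 ± 0.11 at 12 weeks, and the 6-week minus the 12-week difference was −0.41 ± 0.15 in the limma fit (adjusted p = 0.372), which did not pass the adjusted threshold.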

How the results depend on the processing

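No difference called at an adjusted p under 0.05 turned in direction under the alternatives run. Among the uncalled named differences 25 changed sign under at least 1 alternative, 17 of them with slide as a fixed block, and the largest of these 25 was 0.172 in size. The counts were 7 probes called at 6 weeks, 9 at 12 weeks and 12 over both ages, 0 with a difference between the ages, 12 and 18 past the 2-fold criterion at 6 and 12 weeks, 11 genes called by their brightest probe over both ages and 3 differing probe pairs. With normexp background correction the 2-fold counts were 6 and 7, and 17 genes were called. Without a filter on dim probes 2 probes were called at 6 weeks (4 over the array), 1 at 12 weeks (4) and 7 genes over both ages. Kept to probes detected above background on every one of the 12 arrays, the 2-fold counts were 7 and 9. With only the arrays of the age 1 probe was called at 6 weeks (10 over the array). With an intensity trend and robust prior 14 were called at 12 weeks (34 over the array). With a fixed slide block 1 probe was called at 6 weeks, which was not among the 7 of the main fit. Over both ages 2 were called, 1 of them among the 12. In that fit 1 probe differed between the ages, 2 genes were called, and the median over all probes moved to 0.10. With slide as a random block 2 were called at 6 weeks (4 over the array) and 7 genes over both ages. With only the arrays of slide 2 at 12 weeks 2 were called (8 over the array), and neither was among the 9 of the main fit. With the replicate number as a block, 3 probes were called at 6 weeks, 4 at 12 weeks, 8 over both ages and 7 genes. Over the whole array these probe counts were 10, 8 and 13. Deviations of same-numbered mice correlated at 0.034 to 0.217 at 6 weeks and −0.095 to 0.116 at 12 weeks. For differently numbered mice the ranges were −0.211 to 0.088 and −0.158 to 0.143. The labels do not pair the numbers, and they were not taken as pairs. Leaving out 1 array in turn gave 2 to 8 calls at 6 weeks, 1 to 15 at 12 weeks, 8 to 16 over both ages, 7 to 14 genes and 3 probe pairs. The highest of 15 came without replicate 1 of the Il18-/- mice aged 6 weeks and the lowest of 1 without replicate 2 of the Il18+/+ mice aged 12 weeks. The cause of these changes was not tested. With 3 mice in a group, probes whose signal was not well above background in a group have only a bound, and slide and genotype cannot be told apart at 6 weeks.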
